A study of Sus scrofa with 3 samples.

Results

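The genes studied were 9 apolipoprotein genes in pig kidney RNA. They were chosen by symbol from a list of 10, and 9 of the 10 (APOC3, APOA4, APOA1, APOA2, APOE, APOM, APOB, APOH and APOO) had a row under that symbol among the 34570 genes of the count table. The remaining symbol, APOD, had no such row and was not counted as a member; a numbered row that RefSeq names APOD is described apart. The kidneys came from male Chinese Wuzhishan pigs, a miniature breed, aged 6 to 7 months, and every group ate a high-fat and high-cholesterol diet, so no group on an ordinary diet was compared. One group was intact (IM), another was castrated (CM), and the third was castrated with testosterone replacement (CMT), at a dose and for a time that are not given in the sources used here. Each group had 3 pigs, whose RNA was combined in equal amounts before sequencing, which leaves 1 library per group and 3 libraries from 9 pigs. No spread between pigs could be estimated, no difference has a replicate check, and no p-value is given. In such whole-tissue pools, fewer cells of a type and less RNA per cell cannot be told apart.

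Apolipoproteins are the protein part of lipoproteins, the particles that carry cholesterol and triglyceride in plasma. Some build the particle, as apoB does for triglyceride-rich particles and apoA-I for HDL, and others steer what happens to it: apoC-III restrains lipoprotein lipase and the uptake of remnants, apoA-V favours lipolysis, and apoE is a ligand of endocytic receptors. Liver and intestine are their main sources. The kidney is better known for taking filtered apolipoproteins back up in the proximal tubule through megalin and cubilin, although apoM and apoE are also made there.

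The libraries held 16459771 counts in IM, 18503537 in CM and 13601475 in CMT. Levels are given as CPM (counts scaled per 1e+06) of an effective library size, that is, the total multiplied by a scaling factor of 0.973 to 1.02, with an exact 95% Poisson interval. Folds are ratios of these levels with an exact 95% interval, and both intervals cover counting error only. A gene was called higher or lower where the interval of its fold lay wholly beyond 2-fold and its mean level over the libraries was at least 1 CPM, which 15472 genes reached. All 22 genes of a proximal tubule list reached 1 CPM. So did all 12 listed genes of other nephron segments and podocytes that had a row. This level does not by itself identify a tissue, since all 14 genes of a stromal list and 22 of 29 hepatocyte list genes with a row also reached it. Since gene lengths were not part of the files, levels are compared between libraries. Where genes are named for their part in a summed level, that part is not corrected for gene length.

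Of the 9 apolipoprotein genes, 6 reached the mean of 1 CPM: APOC3, APOA4, APOA1, APOE, APOM and APOO. In CM against IM, 3 of the 6 were called higher, APOC3, APOA4 and APOA1, and 0 lower. Over all compared genes, 1.20% were called higher and 1.52% lower in that comparison. The median log2 fold of the 6 was 1.09, against -0.01 over all compared genes. APOA4 reached 1 CPM through its level in CM alone, so that its call is not independent of that filter. Without APOA4, 2 of 5 were called higher, with a median log2 fold of 0.88. The members were chosen with earlier results of these data known, so these counts and medians are a description and no test of the set. The 3 called genes are also neighbours in 1 cluster, so their calls need not be independent of each other.

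**Figure D1:**
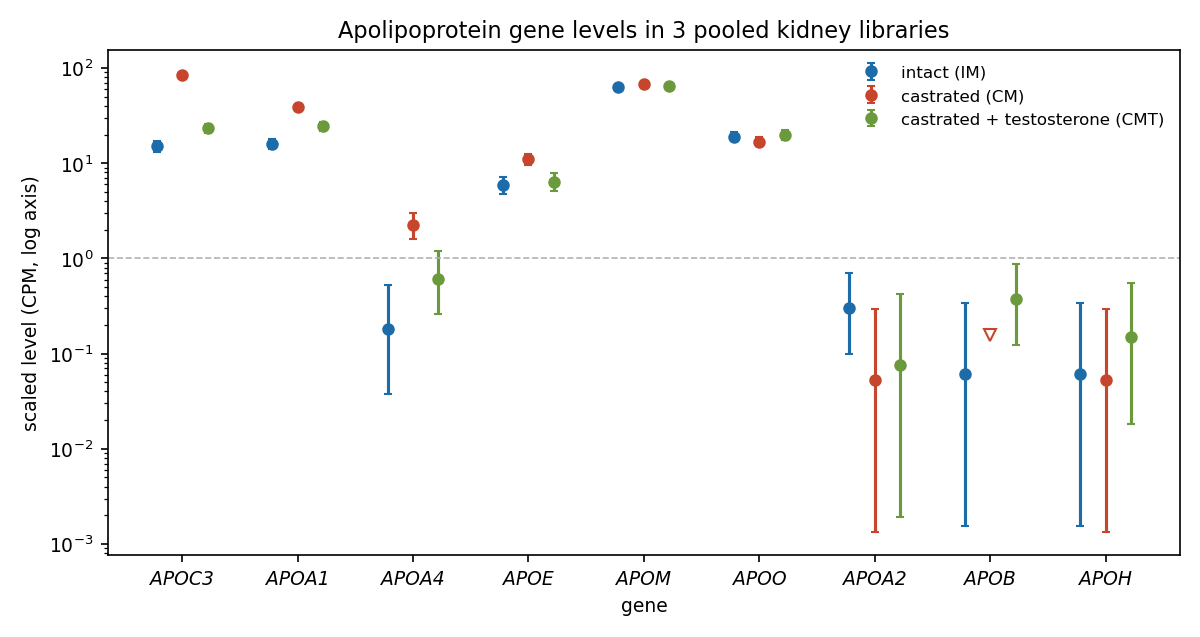
Scaled levels in CPM on a log axis for the 9 apolipoprotein genes in the pooled libraries of intact (IM, blue), castrated (CM, red) and testosterone-replaced castrated pigs (CMT, green), with exact 95% Poisson intervals. The open triangle marks APOB in CM, with 0 counts, at the level of 3 counts, and the dashed line marks 1 CPM; APOC3, APOA1, APOA4 and APOE are highest in CM, while APOM and APOO lie at like levels in all libraries.

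APOC3 codes for apoC-III, the lipase-restraining protein of triglyceride-rich particles. It gave 249 counts in IM, 1591 in CM and 307 in CMT, which are levels of 15.0 CPM (13.2 to 17.0), 84.2 CPM (80.1 to 88.4) and 23.2 CPM (20.7 to 25.9). CM stood far above the other libraries, and the interval of its level overlapped neither of theirs. The fold of CM over IM was 5.60 (4.89 to 6.42), which placed APOC3 60th from the top among the 15472 compared genes. In CMT the gene was 3.63-fold (3.21 to 4.11) below CM and was the only member called in that comparison. CMT remained above IM by 1.54-fold (1.30 to 1.83), an interval that lies above 1 but does not pass 2-fold.

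APOA1 codes for apoA-I, the main protein of HDL and the activator of the enzyme LCAT. It gave 262 counts in IM, 739 in CM and 323 in CMT, at 15.8 CPM (14.0 to 17.9), 39.1 CPM (36.3 to 42.0) and 24.4 CPM (21.8 to 27.2). The order of the libraries was that of APOC3, with no overlap between the 3 intervals. The fold of CM over IM was 2.47 (2.14 to 2.86), and that of CMT over IM was 1.54 (1.31 to 1.82). CMT was 1.60-fold (1.40 to 1.83) below CM, which did not pass the 2-fold rule.

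The ratio of APOC3 to APOA1 counts within a library was higher in CM than in the other libraries. There were 0.950 counts of APOC3 for each count of APOA1 in IM, 2.15 in CM and again 0.950 in CMT. No scaling between libraries enters this ratio. Its change from IM to CM was 2.27-fold (exact 95% interval of the odds ratio, 1.86 to 2.76), and between IM and CMT it differed by less than counting error (interval 0.786 to 1.27). The fold of APOC3 in CM therefore exceeded that of APOA1 by more than counting error, while between CMT and IM counting error alone allows a difference of up to about 1.27-fold.

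APOA4 codes for apoA-IV, a protein of chylomicrons and HDL that is made mainly in the intestine. It gave 3 counts in IM, 42 in CM and 8 in CMT, or 0.181 CPM (0.0374 to 0.529), 2.22 CPM (1.60 to 3.003) and 0.604 CPM (0.261 to 1.19). CM was the highest library, and the intervals of IM and CMT overlapped. The ratio of CM to IM was 12.3 (3.92 to 61.8), a wide interval on 3 counts in IM. CMT was 3.68-fold (1.71 to 9.07) below CM, short of the rule because the interval begins under 2. The mean level of APOA4 was 1.002 CPM, just over the minimum, and its call was lost when the counts were thinned to the depth of CMT, where the interval of the ratio (3.07 to 107) still lay above 2 but the gene no longer reached 1 CPM. The ratio of CM to IM did not differ from that of APOC3 beyond counting error (2.19 times as large, 0.692 to 11.1). It was 4.96 times (1.56 to 25.2) that of APOA1. Because APOA4 reached 1 CPM through CM alone, its ratio was favoured by the filter. These intervals do not allow for that, so no difference from APOA1 is concluded.

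**Figure D2:**
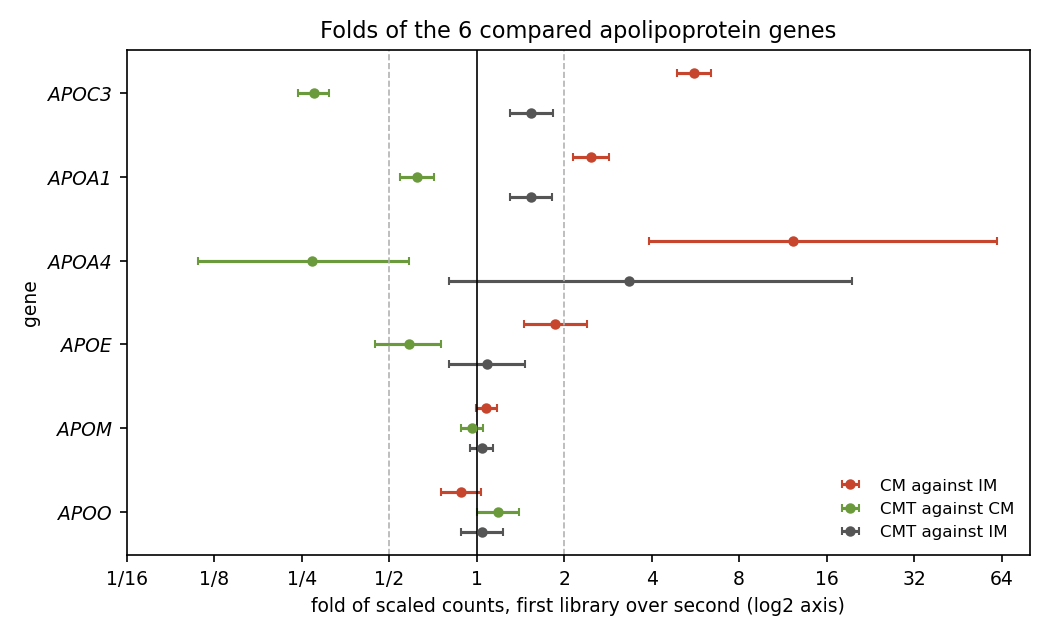
Folds of scaled counts on a log2 axis with exact 95% intervals for the 6 apolipoprotein genes that reached 1 CPM, in CM against IM (red), CMT against CM (green) and CMT against IM (grey). Dashed lines mark 2-fold either way; in CM against IM the intervals of APOC3, APOA1 and APOA4 lie wholly above 2, that of APOE crosses 2, and those of APOM and APOO include 1.

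APOE codes for apoE, the receptor ligand of remnant particles, which macrophages and kidney cells also make. It gave 98 counts in IM, 208 in CM and 85 in CMT, at 5.92 CPM (4.81 to 7.21), 11.0 CPM (9.56 to 12.6) and 6.42 CPM (5.13 to 7.94). CM was again the highest and did not overlap the others, which overlapped each other. The fold of CM over IM was 1.86 (1.46 to 2.39), which includes 2 and was not called. CMT was 1.71-fold (1.33 to 2.23) below CM and stood at 1.09-fold (0.802 to 1.47) over IM. The fold of APOC3 in CM against IM exceeded that of APOE by 3.01 times (2.26 to 3.99). For APOE against APOA1 the interval of the same quantity (0.752, 0.565 to 1.01) included 1. Of 14 compared markers of macrophages, a known source of apoE, 0 were called in CM against IM. Over all compared genes, 1.20% were called higher and 1.52% lower there. Of the 14 markers, 9 lay above 0, with a median log2 fold of 0.18. The 15 listed markers with a row summed to 160.2 (IM), 202 (CM) and 236 CPM (CMT). Among them, chosen after their values were seen, the intervals of CSF1R (1.95, 1.66 to 2.31), VSIG4 (1.65, 1.08 to 2.56), CD14 (1.53, 1.20 to 1.95), C1QC (1.45, 1.33 to 1.59) and C1QA (1.17, 1.01 to 1.34) in CM over IM lay above 1, and that of C1QB (0.819, 0.684 to 0.979) lay below 1. The part of macrophages in the APOE level was not tested. MSR1, a scavenger receptor of macrophages, was the called member of that list, at 3.05-fold (2.03 to 4.70) in CMT over IM.

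APOM codes for apoM, a lipocalin of HDL that carries sphingosine 1-phosphate and is made in liver and proximal tubule. It gave 1042 counts in IM, 1285 in CM and 867 in CMT, at 62.9, 68.0 and 65.5 CPM. The libraries differed little: the folds were 1.08 (0.995 to 1.17) for CM over IM, 0.964 (0.883 to 1.05) for CMT over CM and 1.04 (0.950 to 1.14) for CMT over IM. These intervals reach about 1.17-fold at most, but they cover counting error only. They do not bound differences that come from pigs, pooling, library preparation or scaling. Of the sphingosine 1-phosphate list (its receptors, kinases, transporters and degrading enzymes), 0 of 10 compared genes were called in any of the 3 comparisons. Over all compared genes, 0.595% to 1.84% were called per direction and comparison, so 0 of 10 is near that share.

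APOO codes for a protein first described as an apolipoprotein and now known as MIC26, a subunit of the mitochondrial MICOS complex, which shapes the cristae of the inner membrane. It gave 316 counts in IM, 318 in CM and 264 in CMT, at 19.1, 16.8 and 19.9 CPM. Its folds were 0.881 (0.752 to 1.03) for CM over IM, 1.19 (1.003 to 1.40) for CMT over CM and 1.05 (0.884 to 1.23) for CMT over IM. Of 12 compared genes of MICOS and its partners, APOO included, 0 were called in any comparison, with a median log2 fold of -0.08 in CM against IM. With 0.595% to 1.84% of all compared genes called per direction and comparison, 0 of 12 is near the share of all genes. APOOL, or MIC27, a close relative of APOO read from a numbered row, gave 356, 224 and 250 counts. APOOL was 1.81-fold (1.53 to 2.15) lower in CM than in IM, which was not called and ran opposite to APOC3 and APOA1.

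The other members were at the limit of detection. APOA2, for the second protein of HDL, gave 5 counts in IM and 1 in each of the others. In the order IM, CM, CMT, APOB, for the structural protein of VLDL, LDL and chylomicrons, gave 1, 0 and 5. APOH, for beta2-glycoprotein I, a phospholipid-binding plasma protein, gave 1, 1 and 2. All lay under 1 CPM in every library, and the 0 counts of APOB in CM are compatible with as many as 3 (0.159 CPM). No difference in APOA2 or APOH was detectable at this depth, since the interval of each ratio included 1. For APOB, with 5 counts in CMT and 0 in CM, the exact interval of the ratio of CMT to CM starts at 1.31, and those of the other comparisons include 1. MTTP, the lipid transfer protein that loads lipid onto apoB, gave 2, 24 and 19 counts in that order. Its ratio of CM to IM was 10.5 (2.61 to 91.8) and that of CMT to IM 11.9 (2.87 to 105); with a mean of 0.942 CPM it was too low to be called.

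APOD, a lipocalin of HDL that binds arachidonic acid and progesterone, was read from the numbered row that RefSeq names so. It gave 200 counts in IM, 300 in CM and 154 in CMT, at 12.1, 15.9 and 11.6 CPM. CM was the highest library, with a fold of 1.31 (1.09 to 1.58) over IM and of 1.36 (1.12 to 1.67) over CMT, and neither passed the 2-fold rule. Of 8 compared lipocalin genes, APOD and APOM included, 0 were called in CM against IM, where 7 lay above 0 with a median log2 fold of 0.42. SAL1, a salivary lipocalin that carries boar pheromones, was called in both comparisons of CMT, at 10.4-fold (10.2 to 10.8) over CM and 18.0-fold (17.3 to 18.7) over IM. Genes of stroma and vessel wall (14 compared) and of Schwann cells and nerve (4 compared), tissues in which APOD is known, had 0 called members in each comparison. Over all compared genes, 0.595% to 1.84% were called per direction and comparison. The counts of 0 in this paragraph are near that share.

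In CMT against CM, 1 of the 6 compared members (APOC3) was called lower and 0 higher, where 1.11% of all compared genes were called lower and 1.84% higher. The median log2 fold of the 6 was -0.72, against 0.00 over all compared genes, and -0.68 without APOA4. In CMT against IM, 0 of 6 were called in either direction by the interval rule, where 0.905% of all genes were called higher and 0.595% lower. Both comparisons with CM share that library, so a level that is high in CM moves both folds at once. For the 6 members, the median log2 fold in CMT against IM was 0.37, and without APOA4 it was 0.12.

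APOA5, APOA4, APOC3 and APOA1 are neighbours. In RefSeq (assembly Sscrofa11.1) they follow each other in that order with no other protein-coding gene between them; the build behind the counts is not given in the sources used here, and the table served for gene order only. APOA5, which codes for the lipolysis-promoting apoA-V and is not among the 9 members, gave 9 counts in IM, 57 in CM and 4 in CMT. CM stood above IM by 5.55-fold (2.73 to 12.7), and CMT below CM by 9.98-fold (3.69 to 37.9), and both were called. Like APOA4, APOA5 reached 1 CPM only through CM. APOC3 and APOA1, which lay above 1 CPM in every library, were called higher in CM than in IM with log2 folds of 2.48 and 1.30, where 1.20% of all compared genes were called higher.

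The genes around the cluster stayed within smaller folds. Of the 5 protein-coding neighbours on each side, 8 were compared, and 0 of these were called in any comparison. Over all compared genes, 0.595% to 1.84% were called per direction and comparison, so 0 of 8 is near the share of all genes. In CM against IM the log2 folds of the 8 ran from -0.39 to 0.31. SIK3, the kinase gene next to APOA1, stood at 1.13-fold (1.05 to 1.22) in CM over IM. BUD13, a splicing factor gene on the side of APOA5, stood at 1.05-fold (0.908 to 1.20). CADM1, an adhesion molecule gene with the highest fold of the 8, stood at 1.24-fold (1.02 to 1.51), an interval that ends below the start of that of APOA1. The other apolipoprotein cluster, APOE with APOC4 and APOC2, held 1 gene above 1 CPM, APOE. APOC2, for the cofactor that activates lipoprotein lipase, gave 10, 13 and 10 counts and a ratio of CM to IM of 1.14 (0.461 to 2.90). APOC4 gave 0, 0 and 1. Of the 9 compared flanking genes there, 0 were called, again near the share of all genes.

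**Figure D3:**
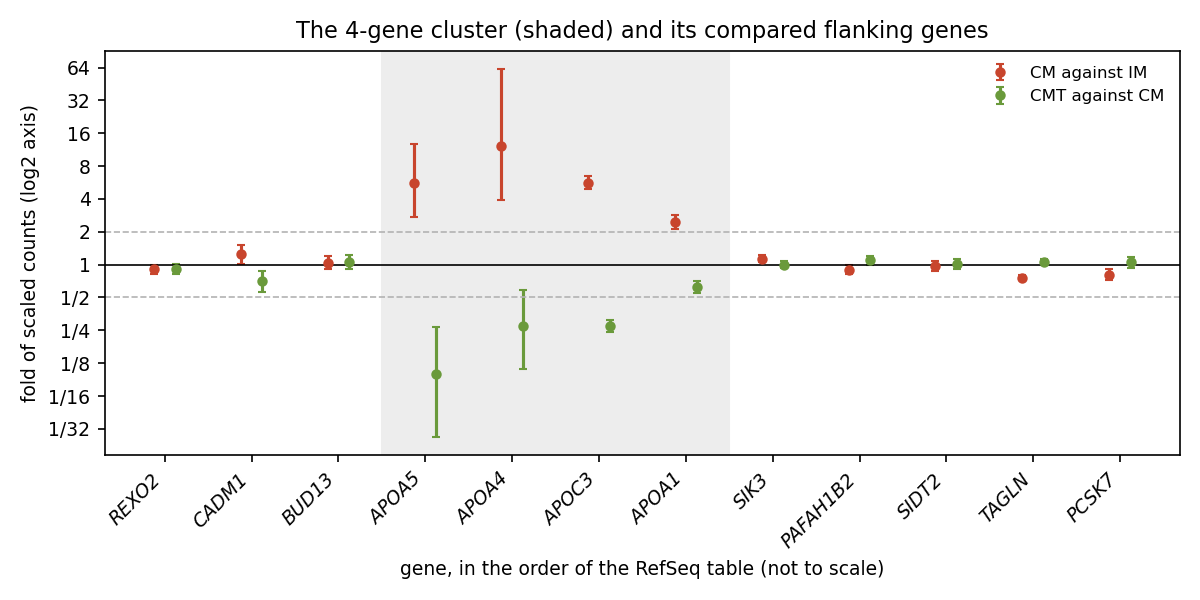
Folds of scaled counts on a log2 axis with exact 95% intervals for APOA5, APOA4, APOC3 and APOA1 (shaded) and their compared flanking genes in the gene order of RefSeq (not to scale), in CM against IM (red) and CMT against CM (green), which share the CM library. In CM against IM the 4 shaded genes lie wholly above 2-fold, of which APOA5 and APOA4 reached the 1 CPM minimum only through CM, and the 8 flanking genes between log2 folds of -0.39 and 0.31.

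Among other apolipoprotein genes on a list written for this purpose, 5 of 10 with a row were compared. APOA5, which reached 1 CPM only through CM, was the only one called. It was called higher in CM against IM and lower in CMT against CM, where 1.20% and 1.11% of all compared genes were so called. CLU, which codes for clusterin or apoJ, a chaperone abundant in injured tubules, gave 5595, 9211 and 6837 counts. Its fold was 1.44 (1.39 to 1.49) in CM over IM and 1.53 (1.48 to 1.58) in CMT over IM, so that, unlike APOC3, it was not lower in CMT than in CM (1.06, 1.03 to 1.09). APOBR, a receptor for apoB48, and APON stood at 1.23-fold (0.792 to 1.93) and 0.956-fold (0.621 to 1.47) in CM over IM.

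Transcription factors known to act on apolipoprotein genes varied in their behaviour. Of 23 compared, 1 was called higher and 0 lower in CM against IM (median log2 fold 0.06), 3 higher and 2 lower in CMT against CM, and 1 higher and 0 lower in CMT against IM. In the same order, the shares of all compared genes called higher and lower were 1.20% and 1.52%, 1.84% and 1.11%, and 0.905% and 0.595%. HNF4A, a nuclear receptor that drives the APOA1-APOC3-APOA4 cluster in liver and intestine, gave 14614, 16404 and 12147 counts. Its level hardly moved, with a fold of 0.983 (0.961 to 1.01) in CM over IM and 1.06 (1.03 to 1.08) in CMT over CM. CREB3L3, a liver and intestinal factor that activates APOA4 and APOC2, gave 35, 411 and 667 counts. CM was 10.3-fold (7.28 to 15.0) above IM, and CMT was 2.32-fold (2.05 to 2.63) above CM, both called. CREB3L3 was thus highest in CMT. The part of these factors in the apolipoprotein levels was not tested.

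Several nuclear receptors differed between CMT and CM. PPARA, the receptor of fibrate drugs, which lower APOC3 in liver, gave 234, 343 and 76 counts. CMT was called 3.16-fold (2.46 to 4.11) below CM, and in CM against IM it stood at 1.28-fold (1.08 to 1.52). NR1H4, the bile acid receptor FXR, a known repressor of APOC3 and APOA1 in liver, gave 957, 536 and 921 counts. CMT was called 2.45-fold (2.20 to 2.73) above CM, and in CM it was 2.04-fold (1.83 to 2.27) below IM, which was not called. SREBF1, for the regulator of fatty acid synthesis SREBP-1, gave 581, 1455 and 411 counts and in CMT was called 2.48-fold (2.22 to 2.77) below CM. In CM it was 2.19-fold (1.99 to 2.42) above IM, which was not called. NR0B2, for the corepressor SHP, a target of FXR, was named after its values were seen. It gave 29, 17 and 46 counts, with CMT called 3.86-fold (2.17 to 7.19) above CM. Whether any of these regulators acted on the apolipoprotein genes here was not tested.

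**Figure D4:**
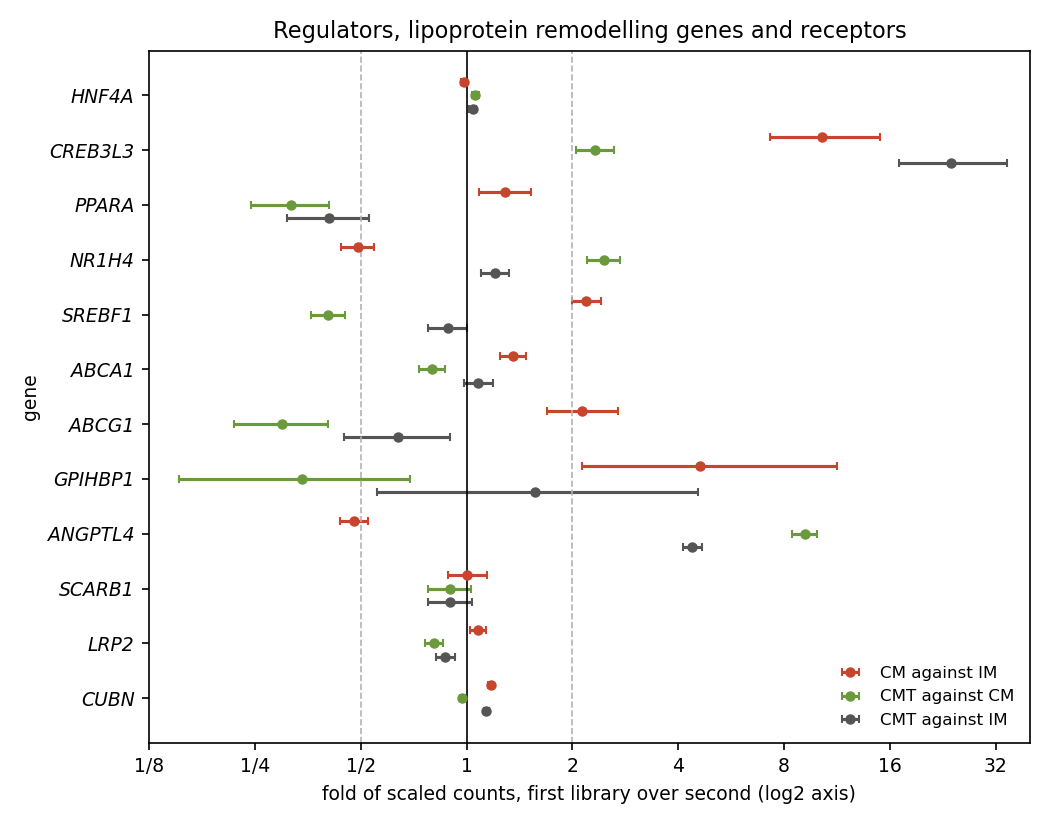
Folds of scaled counts on a log2 axis with exact 95% intervals for regulators of apolipoprotein genes, genes of lipid loading and remodelling, and lipoprotein receptors, in CM against IM (red), CMT against CM (green) and CMT against IM (grey). CREB3L3 lies above 2-fold in all 3 comparisons and ANGPTL4 above 2-fold in both comparisons of CMT. The point folds of SCARB1, LRP2 and CUBN, without their intervals, lie between 0.808 and 1.17.

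Among genes that load and remodel lipoproteins, 3 were called in at least 1 comparison. Of 14 compared, 1 was higher and 0 lower in CM against IM (median log2 fold -0.16), 1 higher and 1 lower in CMT against CM, and 1 higher and 0 lower in CMT against IM. The shares of all compared genes called higher and lower were, in that order, 1.20% and 1.52%, 1.84% and 1.11%, and 0.905% and 0.595%. GPIHBP1, which anchors lipoprotein lipase on capillaries, gave 8, 42 and 10 counts, with CM 4.60-fold (2.13 to 11.3) above IM, the called difference of that comparison. Its levels were 0.483, 2.22 and 0.756 CPM, so that GPIHBP1, like APOA4, reached 1 CPM only through CM. ABCG1, which passes cholesterol to HDL, gave 104, 253 and 53 counts, with CMT 3.34-fold (2.48 to 4.58) below CM, a called difference. ANGPTL4, like apoC-III an inhibitor of lipoprotein lipase, gave 1275, 697 and 4467 counts. It was lowest in CM, and CMT was 9.15-fold (8.45 to 9.93) above CM and 4.38-fold (4.12 to 4.67) above IM, both called. ABCA1, which transfers lipid to apoA-I, gave 942, 1458 and 813 counts and stood at 1.36-fold (1.25 to 1.47) in CM over IM, not called.

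Receptors for lipoproteins and their helpers gave 0 called genes of 17 in each comparison, with a median log2 fold of 0.02 in CM against IM. That count is near the share over all compared genes, of which 0.595% to 1.84% were called per direction and comparison. LRP2, or megalin, the endocytic receptor of the proximal tubule that binds filtered apoA-I with cubilin, gave 2510, 3083 and 1745 counts and a fold of 1.08 (1.02 to 1.13) in CM over IM. CUBN, for cubilin, gave 25207, 33712 and 22921 counts and a fold of 1.17 (1.15 to 1.19) in CM over IM. SCARB1, the HDL receptor, stood at 1.01-fold (0.886 to 1.14) in that comparison. The intervals of these 3 receptors in CM against IM all end below the start of those of APOC3 and APOA1.

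Markers of organs that make apolipoproteins were read in the same libraries. Of 22 compared genes of hepatocytes and plasma proteins, 4 were higher and 4 lower in CM against IM. The shares of all compared genes called there were 1.20% higher and 1.52% lower. The 29 listed genes with a row summed to 1922 (IM), 1536 (CM) and 1918 CPM (CMT). TF, CPB2, KNG1 and F2 made up the largest parts of this sum, without correction for gene length. They stood at 626, 374, 271 and 237 CPM in IM, against 285, 299, 361 and 221 CPM in CM. Some listed genes had a mean under 1 CPM, such as SERPINA1 (3, 1 and 0 counts) and FGA (17, 0 and 5). Whether the sum follows hepatocytes was not tested. ALB, for albumin, gave 1952, 24 and 404 counts and was 92.9-fold (62.2 to 145) lower in CM than in IM. AFP, for alpha-fetoprotein, gave 194, 6 and 111 counts, and PLG, for plasminogen, gave 128, 4 and 16, both also called lower in CM. TF, for the iron carrier transferrin, was the remaining one called lower, with 10365, 5382 and 7240 counts. ASGR1, for a subunit of the hepatocyte asialoglycoprotein receptor, gave 0, 40 and 50 counts and was called higher in CM. The others called higher were TTR, for the thyroid hormone carrier transthyretin (133, 489 and 775 counts; 3.22-fold, 2.65 to 3.93), HRG, for histidine-rich glycoprotein (187, 621 and 266; 2.91-fold, 2.47 to 3.44), and F10, for coagulation factor X (172, 516 and 184; 2.63-fold, 2.21 to 3.14). HRG and F10 were, like APOC3, highest in CM, whereas TTR and ASGR1 were highest in CMT. HPX, for the heme carrier hemopexin, gave 151, 361 and 125 counts and a fold of 2.09 (1.73 to 2.55), which was not called. The hepatocyte genes were named after their values were seen. Of 14 enterocyte genes, 4 (FABP2, SI, CDX1 and CDX2) had 0 counts in every library and 2 reached 1 CPM. Their summed level, nearly all from VIL1 and CLDN7, which renal epithelium also expresses, was 267 (IM), 271 (CM) and 283 CPM (CMT). Proximal tubule genes summed to 49380 (IM), 58479 (CM) and 56853 CPM (CMT). In CM against IM, 2 of 22, the organic anion transporter genes SLC22A7 and SLC22A6, were called higher and 0 lower. The shares of all compared genes in that comparison were again 1.20% and 1.52%. Of 5 compared adipocyte genes, PLIN4 was called higher in CM than in both others, and LIPE higher in CMT than in CM. In CMT against CM, 1.84% of all compared genes were called higher and 1.11% lower. The part of these cell types in the apolipoprotein levels was not tested.

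The genes whose levels ran most like those of 2 members and of APOD were found among 7698 others with a symbol and a mean of at least 10 CPM, by the distance between log2 folds in CM against IM and CMT against CM. These are only 2 values from 3 libraries that share CM, and the neighbours are a description. Nearest to APOC3 were IGJ, the joining chain of antibodies, at a distance of 0.40, HSD17B2, which oxidises testosterone and estradiol, at 0.44, TMED6 at 0.60, the ion channel gene ASIC1 at 0.60 and the annexin gene ANXA13 at 0.64. HSD17B2 gave 351, 1686 and 365 counts beside the 249, 1591 and 307 of APOC3. Nearest to APOA1 were the chemokine gene CXCL12, the basement membrane collagen gene COL4A3, ORMDL3, a regulator of sphingolipid synthesis, the monooxygenase gene FMO5, and TSPAN11, at distances of 0.17 to 0.21. APOC3 had no neighbour as near as these. For the APOD row the nearest were PTPRC, TOX3, IQSEC1, ZBTB48 and PTPRF, within 0.03, in a region of small folds that many genes share.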

How the data were processed

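The deposited values are raw counts, whole numbers with differing totals, in 1 column per pooled library. Per the labels' protocols, TRIzol RNA was pooled by group and libraries were made with an Ion Total RNA-Seq kit, whereas the design text speaks of triplicates and an Illumina sequencer; this was not settled here. FastQC is the only tool in the submitters' processing notes; whatever aligner, counter, strand setting, build and annotation the authors used is not given in the sources used here, and overlapping genes cannot be told apart.

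Effective library sizes came from TMM factors (edgeR 4.0.16, R 4.3.3). Intervals of folds are Clopper-Pearson intervals of the share of counts (scipy 1.17.1), and log2 folds used a prior count of 2. Differences between 2 genes' folds are plain ratios of the count ratios, with the exact interval of the conditional odds ratio. With 1 library per group no test of a condition was possible. The call rule was checked on simulated counts with Poisson error only. These held no spread between pigs or libraries, so the check says nothing of that spread. Of 19902 numbered rows, 1556 received a RefSeq symbol (assembly Sscrofa11.1), among them APOD and APOOL, and a few list genes were matched by RefSeq synonyms. An unnamed column of 4 values was not used.

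The members and the 15 gene lists were chosen with earlier results of these data known. All members were named, and of each pathway list up to 4 called genes and 10 fixed genes, of which 1 is not reported here; cell type markers are given by counts and examples. The 11 alternatives covered scaling (DESeq2 1.42.0 size factors among them), depth, filter and call rule. No sequences are printed.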

Additional observations from a re-analysis of the deposited data

How the results depend on the processing

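Of 285 member folds under 11 alternatives, 278 kept their call and stayed within the main interval, and none of the called folds changed sign. Only the alternatives of scaling and depth recomputed the fold. Those of filter and call rule left it unchanged, so under them only the call could differ. APOC3 kept both of its calls under every alternative, and APOA1 lost its call in CM against IM when the interval had to lie beyond 3-fold. APOA4 lost its call there under thinning to the smallest library and under a minimum of 5 CPM, both of which leave it below the filter. Of 1080 values for the gene lists (counts of called genes and medians), 81 moved, among them 23 with an interval beyond 1.5-fold, 18 with a point fold beyond 2 and 12 with an interval beyond 3-fold. APOA2, which was not compared, went to 0 counts in CM under thinning. In CMT against CM, members called lower rose from 1 to 2 (APOA4 joining APOC3) with an interval beyond 1.5-fold and with a point fold beyond 2. In CMT against IM, members called higher rose from 0 to 1 (APOA4, 3.34) with a point fold beyond 2. Over all genes, the interval rule called 185 higher and 235 lower in CM against IM, 285 and 171 in CMT against CM, and 140 and 92 in CMT against IM. In the same order, the point rule called 498 and 522, 599 and 504, and 415 and 349. The 1.5-fold rule called 434 and 529, 570 and 404, and 356 and 223. The 3-fold rule called 81 and 118, 129 and 67, and 53 and 37. A minimum of 5 CPM left 116 and 155, 201 and 99, and 89 and 43. No scaling moved the median log2 fold of all genes by more than 0.08. No replicate could be left out and no paired analysis was possible because each group is 1 pooled library. Depth limits APOA2, APOB, APOH and APOA4.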
